A study of Mus musculus with 13 samples.

Results

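The 7 genes described here encode surface proteins through which intestinal epithelium can signal to lymphocytes: the 4 butyrophilin-like genes Btnl1, Btnl2, Btnl4 and Btnl6 and the 3 checkpoint and adhesion genes Cd274, Tnfrsf14 and Ceacam1. They were taken by symbol from a table of raw counts for 21868 genes, and all 7 had enough counts to be tested. The cells were jejunal epithelial cells of mice, sorted by flow cytometry as EpCAM positive and without CD45, CD11b, CD3 or B220, and their polyadenylated RNA was sequenced in 13 libraries. Restricted feeding for 2 weeks defined 3 of the groups, in hours of zeitgeber time (ZT). Breakfast skipping (BSF, 2 libraries) was feeding from ZT 16 to 24. Lunch skipping (LSF, 3 libraries) was feeding from ZT 12 to 16 and from ZT 20 to 24. Dinner skipping (DSF, 2 libraries) was feeding from ZT 12 to 20. A group of 3 libraries named BSF_C is labelled as breakfast skipping combined with control, with no more said, and 3 libraries formed the control group (con). Feeding times of BSF_C and con, the hour of sampling, and the strain, sex and age of the mice are not given in the sources used here, and neither is the number of animals behind a library, so p-values measure the spread between these libraries.

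Butyrophilin-like proteins are members of the immunoglobulin superfamily related to B7 ligands. In mice, BTNL1 pairs with BTNL6 on enterocytes, and this pair shapes the gamma-delta T cells that live between them. BTNL4 is a close relative that can also pair with BTNL1, and BTNL2 restrains T cell activation in vitro. Checkpoint ligands deliver inhibitory signals to T cells. PD-L1, the product of Cd274, binds PD-1. HVEM, the product of Tnfrsf14, binds BTLA, CD160 and LIGHT and signals through TRAF adaptors and NF-kB. CEACAM1 is an adhesion molecule that binds other CEACAM1 molecules, recruits tyrosine phosphatases and has been described as a partner of TIM-3.

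The 7 genes did not move as one set. Against con, Btnl1, Btnl2 and Btnl6 rose and Btnl4, Tnfrsf14 and Ceacam1 fell in each of BSF, BSF_C, LSF and DSF. Among the groups other than con, LSF had the highest mean of each Btnl gene and the lowest mean of Ceacam1 and Tnfrsf14. None of the 7 genes passed the test in BSF_C against BSF. Cd274 was close to the limit of detection, with 1 to 37 counts in a library.

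The con libraries stood apart from the other 10, and every comparison with them has to be read with that in view. They had 4851239 to 5202146 counts, against 7127769 to 8589351 in the others. Of 14300 genes tested with edgeR's quasi-likelihood test, 70.2% passed an adjusted p of 0.05 for BSF against con, 73% for BSF_C, 72% for LSF and 67.7% for DSF. The summed level of 15 enterocyte and epithelial genes was 27598 to 37878 CPM (counts scaled to library size) in the 10 libraries and 11253 to 12709 CPM in con. That list includes Apoa4, which dominates the sum of villus tip genes given below. Not every epithelial list was lower in con. Genes of 13 enterocyte regulators, HNF4 and CDX factors among them, summed to 3880 to 4117 CPM in the 10 libraries and 6021 to 6649 CPM in con. For 10 crypt and cycling genes the sums were 1797 to 2544 CPM and 3468 to 3693 CPM. The 16 skin keratinocyte genes summed to 5.53 to 11.3 CPM in the 10 and 541 to 646 CPM in con. All 16 keratinocyte genes were lower in each of the 4 groups than in con, where 31.1 to 33.2% of all genes tested were lower. Some of the 16, such as Krtdap, Calm4 and Dsc1, passed the count filter through con alone and could only come out lower. The basal keratin gene Krt5 had 0 to 2 counts in each of the 10 libraries and 107, 113 and 121 counts in con. Epcam, the marker of the sort, was 317 to 384 CPM in the 10 libraries and 183 to 211 CPM in con. The part of these differences in the results against con was not tested.

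The 4 Btnl genes lie within 163 kb of chromosome 17 in the mouse genome (GRCm38, GENCODE M21), in the region of the major histocompatibility complex. Btnl2 (ENSMUSG00000024340.15, chr17:34354822-34369495) and Btnl1 (ENSMUSG00000062638.11, chr17:34377132-34386028) are on the plus strand. Btnl4 (ENSMUSG00000058435.6, chr17:34466562-34477318) and Btnl6 (ENSMUSG00000092618.2, chr17:34507804-34517352) are on the minus strand. This interval holds 10 annotated genes, of which 5 are in the count table. The 2 genes on the plus strand share a stretch of letters close to their starts, and their 250 bases before the RefSeq start (GRCm38.p6) are shown for that reason, 5′ to 3′, from chr17:34376882-34377131 for Btnl1 and from chr17:34354572-34354821 for Btnl2, with capitals marking CAAAGTCC, letters of the type bound by HNF4 nuclear receptors.
Btnl1: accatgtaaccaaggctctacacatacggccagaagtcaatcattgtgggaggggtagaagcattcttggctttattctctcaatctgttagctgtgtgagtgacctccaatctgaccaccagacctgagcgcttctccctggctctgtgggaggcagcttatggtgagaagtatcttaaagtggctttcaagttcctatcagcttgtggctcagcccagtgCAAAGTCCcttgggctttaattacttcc
Btnl2: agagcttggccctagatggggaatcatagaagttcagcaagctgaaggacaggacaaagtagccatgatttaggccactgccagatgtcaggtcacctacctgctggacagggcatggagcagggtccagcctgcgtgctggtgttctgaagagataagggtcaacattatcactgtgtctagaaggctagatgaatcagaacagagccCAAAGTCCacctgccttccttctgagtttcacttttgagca

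CAAAGTCC begins 28 bases before the start of Btnl1 and 41 bases before that of Btnl2. On either strand it is present in 393 of 32851 windows of the same length (1.2%) and in 2 of the 7 genes described here. The motif was picked with these sequences in view, and a match of letters is not a measured binding site. Outside these letters the 2 windows are not alike, with 51.8% identity over their alignment. The windows of Btnl4 and Btnl6 were 90.5% identical, but both end directly before a start codon, so they may not be promoters and are not shown. The RefSeq start of Btnl4 also lies 1381 bases from its GENCODE start, while the starts of Btnl6 are the same.

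Btnl1, one chain of the BTNL1 and BTNL6 pair, rose in all 4 groups against con. It was measured at 261 and 263 CPM for BSF, at 267, 269 and 271 CPM for BSF_C, at 343, 352 and 342 CPM for LSF, at 293 and 312 CPM for DSF, and at 173, 174 and 204 CPM for con. No group's libraries overlap those of another, and LSF is highest. Against con the log2 fold change was 0.52 ± 0.06 (SE) for BSF, 0.55 ± 0.06 for BSF_C, 0.92 ± 0.06 for LSF and 0.72 ± 0.06 for DSF, with edgeR adjusted p-values of 4.59e-10, 3.06e-12, 1.68e-20 and 1.03e-14. Btnl1 was 1.89-fold as high in LSF as in con.

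Btnl6, the other chain, also rose in all 4 groups against con, with smaller differences from con than Btnl1. Its level was 227 and 233 CPM for BSF, 229, 226 and 231 CPM for BSF_C, 283, 286 and 290 CPM for LSF, 236 and 252 CPM for DSF, and 174, 193 and 200 CPM for con. The LSF libraries are again above all others and the con libraries below all others, while BSF and BSF_C overlap. Against con the log2 fold change was 0.28 ± 0.06 for BSF, 0.27 ± 0.06 for BSF_C, 0.60 ± 0.06 for LSF and 0.37 ± 0.06 for DSF (edgeR adjusted p = 0.00011, 3.35e-05, 9.73e-14 and 1.34e-06).

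Btnl4, the relative of Btnl6 on the same strand, fell in every group against con. It was measured at 270 and 275 CPM for BSF, at 286, 267 and 284 CPM for BSF_C, at 311, 329 and 327 CPM for LSF, at 281 and 292 CPM for DSF, and at 415, 402 and 409 CPM for con. Here con is above all other libraries, but LSF is still the highest of the other groups. Against con the log2 fold change was -0.58 ± 0.06 for BSF, -0.55 ± 0.05 for BSF_C, -0.34 ± 0.05 for LSF and -0.51 ± 0.06 for DSF (edgeR adjusted p = 7.81e-13, 8.23e-14, 6.50e-08 and 5.12e-11).

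Btnl2 showed the largest rise against con of the 7 genes and passed the test in no comparison among the other groups. Its level was 117 and 138 CPM for BSF, 127, 124 and 128 CPM for BSF_C, 137, 145 and 138 CPM for LSF, 127 and 131 CPM for DSF, and 59.1, 55.9 and 61.7 CPM for con. The 2 BSF libraries lie far apart, and they overlap the libraries of the other groups except con. Against con the log2 fold change was 1.11 ± 0.08 for BSF, 1.10 ± 0.07 for BSF_C, 1.25 ± 0.07 for LSF and 1.13 ± 0.08 for DSF (edgeR adjusted p = 1.80e-18, 8.67e-20, 3.09e-22 and 1.48e-18). Btnl2 was thus 2.17-fold as high in BSF as in con and 2.38-fold as high in LSF as in con.

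**Figure D1:**
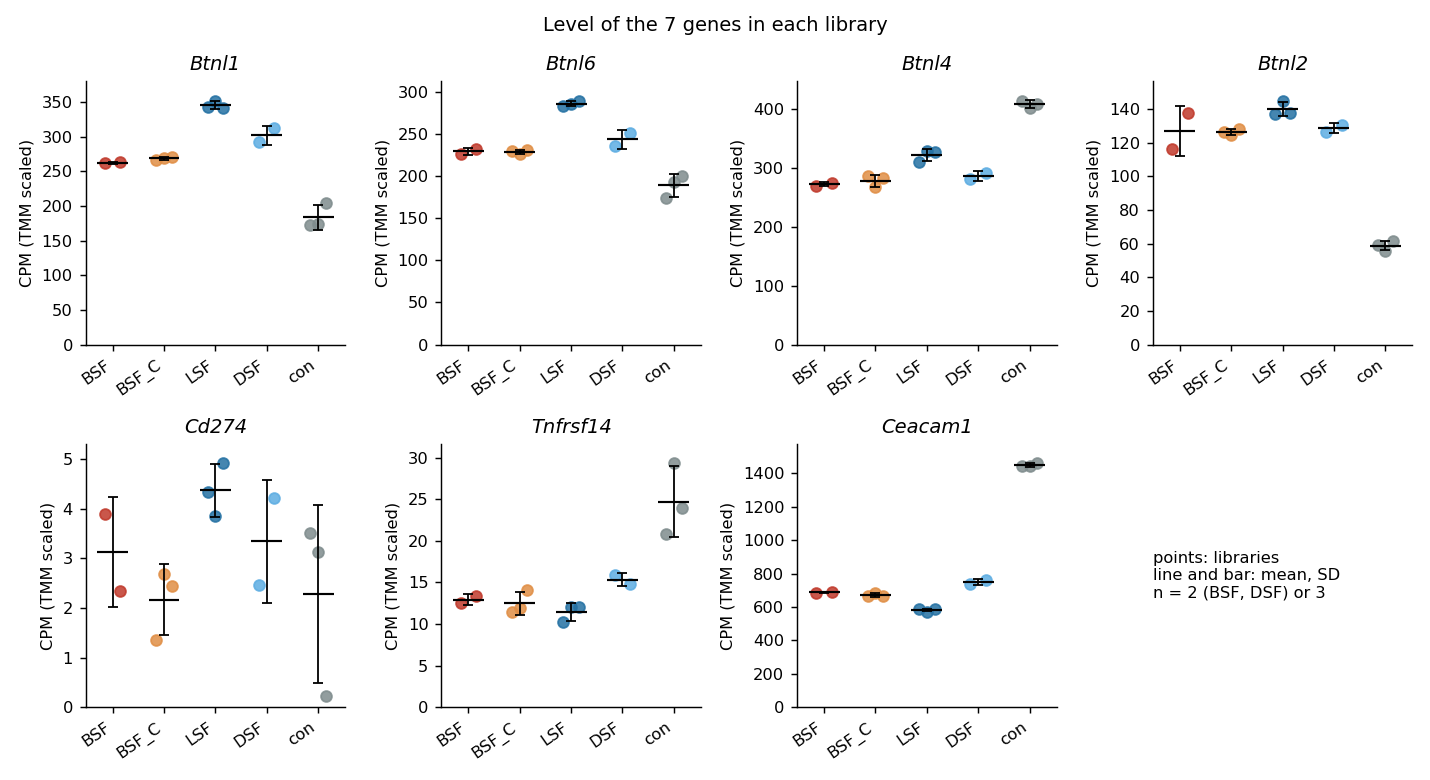
Level of each of the 7 genes (CPM, scaled by trimmed means, axes from 0) in each library, with the mean and SD of each group (n = 2 in BSF and DSF, n = 3 in BSF_C, LSF and con). Btnl1, Btnl6 and Btnl2 are lowest in con and Btnl4, Tnfrsf14 and Ceacam1 highest in con, while LSF has the highest mean of the other 4 groups for each Btnl gene and the lowest for Ceacam1.

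Ceacam1 (ENSMUSG00000074272.10, chr7:25461707-25477603, minus strand) was the most counted of the 7 genes and fell in every group against con. It stood at 686 and 689 CPM for BSF, at 667, 682 and 666 CPM for BSF_C, at 587, 573 and 586 CPM for LSF, at 739 and 762 CPM for DSF, and at 1441, 1446 and 1460 CPM for con. The con libraries are far above all others, and the LSF libraries are below all others. Against con the log2 fold change was -1.08 ± 0.05 for BSF, -1.11 ± 0.05 for BSF_C, -1.32 ± 0.05 for LSF and -0.95 ± 0.05 for DSF (edgeR adjusted p = 3.58e-25, 1.69e-28, 6.97e-32 and 6.86e-23). Of the 100-base windows of a Ceacam1 transcript, 34.5% also occur in Ceacam2, so the split of reads between these 2 genes is uncertain. Ceacam2 itself had 6 to 24 counts in a library, against 4410 to 6980 for Ceacam1. The annotated antisense gene 4732471J01Rik overlaps Ceacam1 over 15897 bases, and the strand setting of the counting is not given in the sources used here.

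Tnfrsf14, the gene of HVEM (ENSMUSG00000042333.16, chr4:154921933-154928563, minus strand), also fell in every group. It was 12.5 and 13.4 CPM for BSF, 11.4, 11.9 and 14.1 CPM for BSF_C, 10.3, 12.1 and 12.1 CPM for LSF, 15.9 and 14.8 CPM for DSF, and 20.9, 29.3 and 23.96 CPM for con. All con libraries are above all others, and the DSF libraries come next. Against con the log2 fold change was -0.93 ± 0.16 for BSF, -0.99 ± 0.14 for BSF_C, -1.11 ± 0.14 for LSF and -0.69 ± 0.15 for DSF (edgeR adjusted p = 7.49e-07, 1.75e-08, 1.40e-09 and 0.000103).

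Cd274, the gene of PD-L1 (ENSMUSG00000016496.7, chr19:29367455-29388095, plus strand), had few counts. There were 29 and 21 counts for BSF, 11, 23 and 20 for BSF_C, 36, 30 and 37 for LSF, 19 and 32 for DSF, and 17, 15 and 1 for con. On the CPM scale that is 3.90 and 2.34 for BSF, 1.35, 2.69 and 2.45 for BSF_C, 4.35, 3.85 and 4.92 for LSF, 2.47 and 4.22 for DSF, and 3.51, 3.12 and 0.23 for con. LSF alone does not overlap con. Its log2 fold change against con was 0.89 ± 0.36 (edgeR adjusted p = 0.0258), which was 0.39 with an adjusted p of 0.297 without con replicate 3 and 0.80 with 0.0733 without LSF replicate 3. With the Wald test of DESeq2 it was 0.90 with an adjusted p of 0.0694. The difference was 0.38 ± 0.42 in BSF, -0.11 ± 0.41 in BSF_C and 0.51 ± 0.42 in DSF (edgeR adjusted p = 0.420, 0.810 and 0.281). An antisense gene, AC119228.1, overlaps 11055 bases of Cd274.

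Thus 6 of the 7 genes passed the test in BSF, BSF_C and DSF against con and 7 of 7 did in LSF, where 67.7 to 73% of all genes tested passed, so these counts are near the background. Among all genes tested, 38.3% were higher and 31.9% lower in BSF than in con. The like shares were 39.8% and 33.2% (BSF_C), 38.9% and 33% (LSF) and 36.6% and 31.1% (DSF). Of the 7 members, 3 were higher and 3 lower than in con for BSF, BSF_C and DSF, and 4 were higher and 3 lower for LSF. The 4 comparisons share the con libraries and are not independent of each other. Scaling by library totals alone put the median over all genes in BSF against con at 0.29 on the log2 scale, against 0.11 with trimmed means, and no member's call or direction against con changed with it. The log2 fold change of Btnl6 in BSF was not far above the median over all genes. It was 0.28 beside 0.11 with trimmed means and 0.46 beside 0.29 with totals alone.

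The ratio of one Btnl gene to another within a library does not depend on scaling. Btnl4 made up 30.3 to 30.9% of the summed counts of the 4 genes for BSF, 30.1 to 31.4% for BSF_C, 28.9 to 29.8% for LSF, 29.6 to 30.0% for DSF and 46.7 to 50.5% for con. Btnl1 made up 29.0 to 31.9% in the 10 libraries and 21.1 to 23.3% in con, and Btnl2 12.6 to 15.2% in the 10 and 6.78 to 7.19% in con. The share of Btnl6 differed least, with 25.2 to 26.4% in the 10 libraries and 21.2 to 23.4% in con. The count of Btnl1 over that of Btnl4 was 0.934 to 1.10 in the 10 libraries and 0.417 to 0.498 in con. The sum of the 4 genes had means of 891 CPM for BSF, 903 for BSF_C, 1094 for LSF, 961 for DSF and 840 for con.

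**Figure D2:**
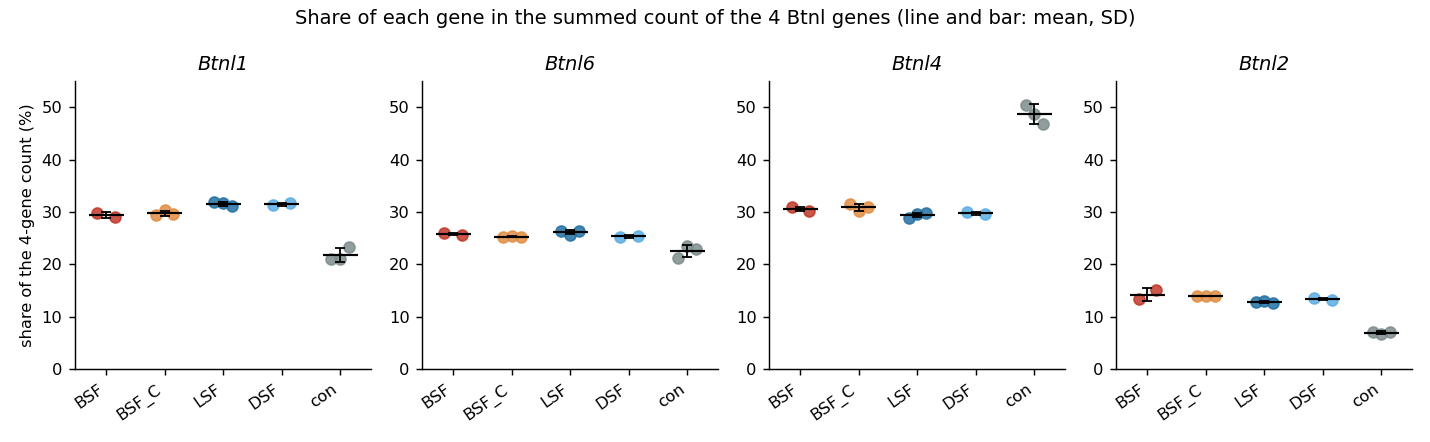
Share (%, axes from 0 to 55) of Btnl1, Btnl6, Btnl4 and Btnl2 in their summed count in each library, with the mean and SD of each group (n = 2 in BSF and DSF, n = 3 in BSF_C, LSF and con). Btnl4 takes 28.9 to 31.4% in the libraries other than con and 46.7 to 50.5% in con, and the other 3 genes take less in con.

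Levels of different genes can be compared only per length of exon. In LSF, the mean level per kilobase was 163 CPM per kb for Btnl6, 135 for Btnl4, 107 for Btnl1 and 54.2 for Btnl2. In con it was 171 CPM per kb for Btnl4, 108 for Btnl6, 56.9 for Btnl1 and 22.8 for Btnl2. The length used was the union of annotated exons, 3226 bases for Btnl1, 2381 for Btnl4 and 1751 for Btnl6. Their longest protein-coding transcripts have 2113, 1761 and 1620 bases. The order of these genes within a group depends on which length is used, so no change of order between LSF and con is read from it. Ceacam1 had 100 CPM per kb in LSF and 250 in con. Tnfrsf14 had 7.98 in LSF and 17.2 in con, and Cd274 had 1.21 in LSF and 0.63 in con. Of the sequence of these genes, 10% of the 50-base windows of Btnl4 and 7.13% of those of Btnl6 occur in another annotated gene. These are mostly the pseudogenes Btnl5-ps and Btnl7-ps, and none of the windows of Btnl1 and Btnl2 are shared. At 50 bases the share was 12.4% for Cd274, 6.14% for Tnfrsf14 and 49.5% for Ceacam1. With 100-base windows, as given for Ceacam1 above, it was 1.44% for Btnl4 and 0.0657% for Btnl6.

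The comparisons among the groups other than con do not involve the con libraries in the fold change. Breakfast skipping against lunch skipping separated 4 of the 7 genes, where 29.3% of all genes tested passed. Btnl1, Btnl4 and Btnl6 were lower in BSF than in LSF, with log2 fold changes of -0.40 ± 0.06, -0.24 ± 0.06 and -0.32 ± 0.06 (edgeR adjusted p = 7.37e-07, 0.000995 and 4.53e-05). Ceacam1 was higher in BSF, at 0.24 ± 0.05 (edgeR adjusted p = 0.000206). For none of these 4 genes do the BSF and LSF libraries overlap, and the 4 calls stood in each alternative run. Btnl2 differed by -0.14 ± 0.07, Tnfrsf14 by 0.18 ± 0.16 and Cd274 by -0.51 ± 0.34, with edgeR adjusted p-values of 0.123, 0.442 and 0.274. Btnl2 passed without BSF replicate 2, at -0.27 with an adjusted p of 0.0275. Of the genes called, 45.8% were higher in BSF with trimmed means and 62.9% with library totals alone.

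BSF_C set against LSF gave the same 4 calls and 1 more. Btnl1, Btnl4 and Btnl6 were lower in BSF_C, with log2 fold changes of -0.36 ± 0.05, -0.21 ± 0.05 and -0.32 ± 0.05, and Ceacam1 was higher, at 0.21 ± 0.05 (edgeR adjusted p = 3.16e-07, 0.00116, 3.08e-06 and 0.00032). Cd274 was lower, with a log2 fold change of -1.003 ± 0.32 (edgeR adjusted p = 0.0127), on 54 counts for BSF_C and 103 for LSF. Without BSF_C replicate 1 it was -0.76 with an adjusted p of 0.0933, without LSF replicate 3 it was -0.91 with 0.0554, and with the DESeq2 Wald test -1.02 with 0.0578. Btnl2 stood at -0.15 ± 0.06 with an adjusted p of 0.052. It passed with 4 of the 8 processing alternatives and without con replicate 2 or 3. The 5 calls compare with 32.7% of all genes tested. The comparison shares the LSF libraries with the one before, and 47.6% of the called genes were higher in BSF_C with trimmed means and 63.3% with library totals alone.

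LSF set against DSF gave 4 calls, where 15.9% of all genes tested passed. Btnl1, Btnl4 and Btnl6 were higher in LSF, with log2 fold changes of 0.19 ± 0.06, 0.17 ± 0.06 and 0.23 ± 0.06 (edgeR adjusted p = 0.0197, 0.0345 and 0.00405). Ceacam1 was lower in LSF, at -0.37 ± 0.05 (edgeR adjusted p = 9.72e-08). The Btnl calls rest on few libraries. Without DSF library a the 3 log2 fold changes were 0.15, 0.14 and 0.19, with adjusted p-values of 0.305, 0.304 and 0.159. Btnl1 was also lost without LSF replicate 2 (0.18, adjusted p = 0.0852), and Btnl4 without LSF replicate 2 or 3 or DSF library b (0.16, 0.16 and 0.20, adjusted p = 0.132, 0.116 and 0.106). With library totals alone, Btnl1 was 0.13 and Btnl4 0.11, with adjusted p-values of 0.0704 and 0.138, and 38% of the called genes were higher in LSF, against 56.5% with trimmed means. Btnl2 differed by 0.12 ± 0.07, Tnfrsf14 by -0.42 ± 0.16 and Cd274 by 0.38 ± 0.34 (edgeR adjusted p = 0.25, 0.0664 and 0.524).

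Fewer of these genes passed between breakfast and dinner skipping. In BSF against DSF only Btnl1 passed, at -0.21 ± 0.07 (edgeR adjusted p = 0.0332), where 12% of all genes tested passed, and this call was lost without any 1 of the 4 libraries compared (adjusted p = 0.156 and 0.15 without a BSF library, 0.067 and 0.286 without a DSF library). In BSF_C against DSF only Ceacam1 passed, at -0.16 ± 0.05 (edgeR adjusted p = 0.0279), where 11.9% passed, and it too was lost without any 1 of the 5 libraries compared (adjusted p = 0.0578 to 0.25). Btnl1 was -0.17 ± 0.06 there, with an adjusted p of 0.057.

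BSF_C against BSF called none of the 7 genes, where 0.133% of all genes tested passed. The log2 fold changes were 0.04 ± 0.06 for Btnl1, -0.01 ± 0.06 for Btnl6, 0.03 ± 0.06 for Btnl4, -0.01 ± 0.07 for Btnl2 and -0.03 ± 0.05 for Ceacam1. They were -0.06 ± 0.16 for Tnfrsf14 and -0.49 ± 0.38 for Cd274, so that for Cd274 a difference of some size could not have been detected at this depth.

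**Figure D3:**
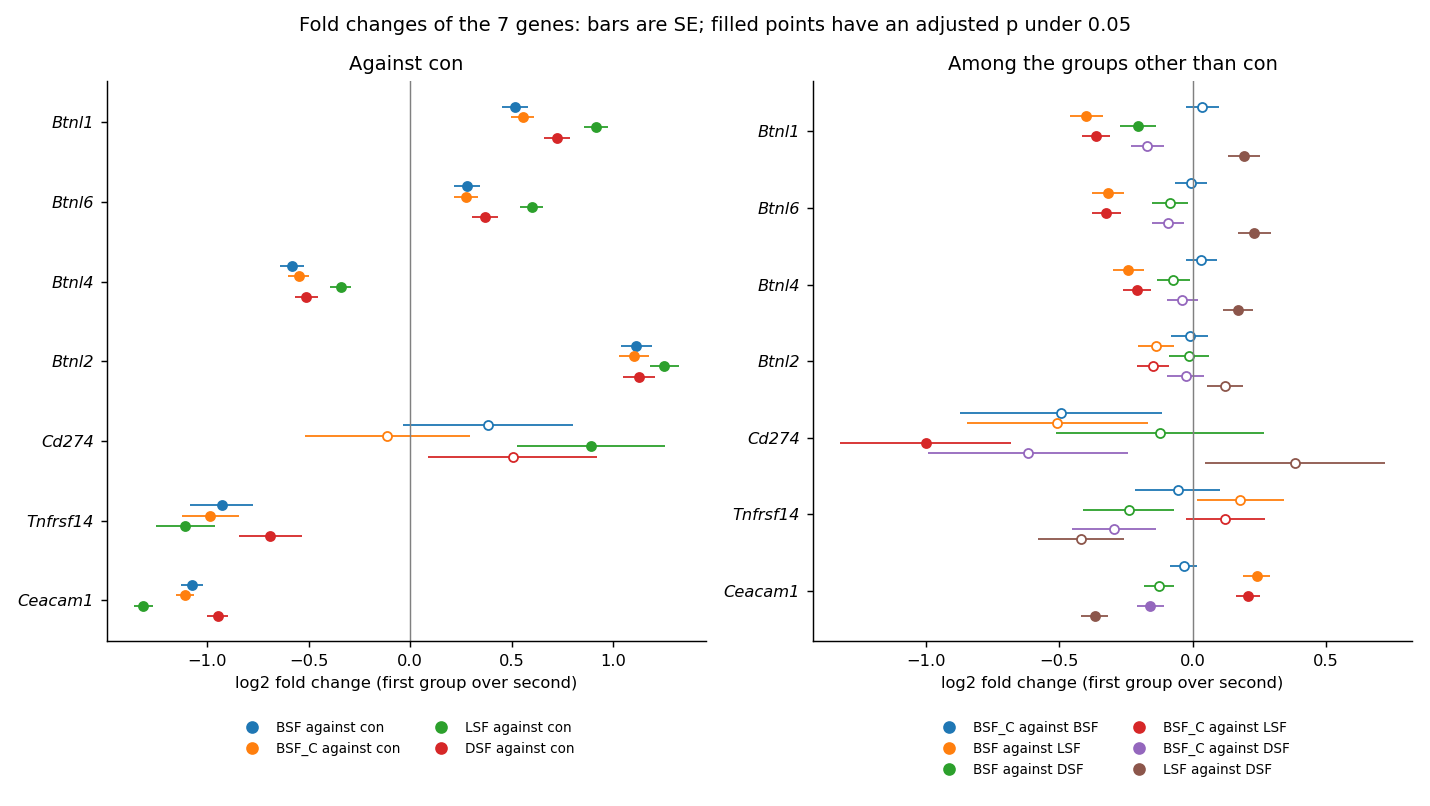
Log2 fold change (x axis, bars SE) of each gene in the comparisons with con (left) and in those among the other groups (right), with filled points where edgeR's adjusted p is under 0.05. On the left Btnl1, Btnl6 and Btnl2 lie right of 0 and Btnl4, Tnfrsf14 and Ceacam1 left of it, and on the right Btnl1, Btnl4 and Btnl6 lie left of 0 in BSF and BSF_C against LSF, with Ceacam1 right of 0.

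In ascending order of mean level, Btnl1 was lowest in con, followed by BSF, BSF_C, DSF and LSF. Among these neighbours the differences between BSF_C and BSF and between BSF_C and DSF did not pass the test, although their libraries do not overlap. For Btnl6 the order was con, BSF_C, BSF, DSF and LSF, and no difference among BSF_C, BSF and DSF passed. For Btnl4 it was BSF, BSF_C, DSF, LSF and con, and again no difference among BSF, BSF_C and DSF passed. Btnl2 was lowest in con, and no difference among the other 4 groups passed. The order of Ceacam1 was LSF, BSF_C, BSF, DSF and con, where neither BSF_C and BSF nor BSF and DSF were separated by the test. Tnfrsf14 had the same order, and only the differences from con passed.

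Across the 10 libraries other than con, Btnl1, Btnl4 and Btnl6 varied together. Pearson's r of log2 CPM was 0.97 for Btnl1 and Btnl6, 0.96 for Btnl4 and Btnl6 and 0.93 for Btnl1 and Btnl4, and it was -0.75 for Btnl6 and Ceacam1. These describe 10 libraries that fall into 4 groups and share their scaling, so r includes the differences between groups. An r of 0.95 or more was reached by 143 of 10489 genes for Btnl1, 160 for Btnl6, 18 for Btnl4 and 28 for Ceacam1. Such values are therefore not particular to the Btnl genes or to the genes named next. Of 10489 genes with a mean of at least 5 CPM, the 3 most like Btnl1 by this measure were Enpep (0.99), which encodes a brush border aminopeptidase, Zfp36 (0.99), which encodes an RNA-binding protein that destabilises messages, and Kif21b (0.99), a kinesin gene. For Btnl6 they were the disaccharidase gene Mgam, the sulphate transporter gene Slc26a2 and the peptide transporter gene Slc15a1, each at 0.99. For Btnl4 they were Ugcg, Nab2 and Ddhd2 (each 0.97). For Ceacam1 they were the amino acid transporter gene Slc1a5 (0.99), Aacs (0.98) and Trp53i11 (0.98). For Btnl2 (Card19, Lta4h and Igf1r), Tnfrsf14 (Arl1, Zbed3 and Klhl26) and Cd274 (Snx29, Itga7 and Zscan25) no gene reached 0.95. Over all 13 libraries the measure mostly separates con from the rest, with 800 genes at 0.95 or more for Btnl2 and 923 for Ceacam1, so no such r is given.

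Relatives of the 7 genes were few in these cells. Of 10 other butyrophilin and Skint genes in the table, 2 could be tested. Btnl9 had 6 and 1 counts for BSF, 0, 3 and 5 for BSF_C, 9, 11 and 12 for LSF, 9 and 11 for DSF, and 0, 1 and 0 for con. Skint3, which mouse keratinocytes express, was at 0 in LSF and averaged 3.04 ± 0.86 CPM in con (SD, n = 3). Like Krtdap, Calm4 and Dsc1 above, it passed the count filter through con alone and could only come out lower against con. Of 10 other CEACAM genes, 4 were tested. Ceacam20, found in the brush border, averaged 79.1 ± 6.80 CPM in BSF (SD, n = 2), 61.3 ± 8.08 in LSF and 21.8 ± 2.75 in con (SD, n = 3 each). Ceacam18 was 33.0 ± 2.13 CPM in LSF, 23.98 ± 0.98 in DSF (n = 2) and 10.1 ± 1.78 in con. Both rose against con, with log2 fold changes of 1.85 ± 0.11 and 1.83 ± 0.14 in BSF (edgeR adjusted p = 3.90e-21 and 6.79e-17), while Ceacam1 fell. Ceacam19 fell, with 0 counts in BSF and 60 in con, and Ceacam2 did not pass (adjusted p = 0.0814). In BSF against LSF, Ceacam20 was higher in BSF, as Ceacam1 was, at 0.37 ± 0.09 (edgeR adjusted p = 0.000971), and the other 3 did not pass.

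Other ligands of inhibitory and costimulatory receptors were split in the comparison with con. Of 17 tested, 7 were higher and 7 lower in BSF than in con, where 70.2% of all genes passed, with a median log2 fold change of -0.01 beside 0.11 for all genes. H2-T23, which encodes the Qa-1 ligand of NKG2A, was 363 ± 3.29 CPM in LSF and 119 ± 8.22 CPM in con (SD, n = 3 each). Lgals9, whose product galectin-9 binds TIM-3, was 363 ± 7.18 CPM in LSF and 727 ± 50.6 CPM in con. In BSF against LSF, 7 of the 17 were lower and 1 higher, where 29.3% of all genes passed in either direction, with a median of -0.30 beside 0.01 for all genes. Lgals3 (-0.64 ± 0.07), H2-T23 (-0.44 ± 0.06) and the nectin gene Nectin2 (-0.33 ± 0.07) were among those lower, with edgeR adjusted p-values of 3.54e-10, 1.30e-07 and 0.000102.

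Receptors on lymphocytes, among them those that meet the products of the 7 genes, were counted in the same libraries, although the sort removed CD45 and CD3 positive cells. Pdcd1, the gene of PD-1, had 0 to 3 counts in each of the 10 libraries and 0 in con. Btla had 1 to 9 counts in the 10 libraries and 0, 1 and 0 in con. Cd160, which many intraepithelial lymphocytes express, had 35 and 22 counts for BSF, 17, 31 and 25 for BSF_C, 28, 23 and 25 for LSF, 28 and 35 for DSF, and 4, 5 and 3 for con. Havcr2, the gene of TIM-3, had 0 and 5 counts for BSF, 3, 16 and 3 for BSF_C, 12, 10 and 16 for LSF, 15 and 16 for DSF, and 0, 0 and 4 for con. Of 11 genes of lymphocyte receptors and partners, 7 were tested. In BSF against LSF 4 of them were lower and 0 higher, where 29.3% of all genes passed, with a median log2 fold change of -0.66 beside 0.01 for all genes. The 4 were Cd244a, Havcr2, Tigit and Ctla4, of which only Havcr2 encodes a partner named above for a product of the 7 genes. Cd160 differed by 0.12 ± 0.31 (edgeR adjusted p = 0.815). Cd244a was 13.2 ± 0.03 CPM in BSF (SD, n = 2) and 20.8 ± 0.68 in LSF (n = 3), the lowest p of these.

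Genes of intraepithelial lymphocytes moved in part with the Btnl genes. Their list of 26 summed to 357 to 390 CPM for BSF, 375 to 412 for BSF_C, 520 to 532 for LSF, 524 to 539 for DSF and 162 to 183 for con. In con, Cd3e had 4, 0 and 0 counts, Gzmb 3, 0 and 2, Cd8a 2, 6 and 2 and Ptprc 0, 2 and 0, so most of that sum in con was other genes of the list such as Itgae (83.2 to 90.0 CPM). In BSF against con, 20 of 23 tested were higher and 1 lower, where 38.3% of all genes were higher and 31.9% lower. In BSF against LSF, 13 were lower and 1 higher, where 29.3% of all genes passed, with a median log2 fold change of -0.67 beside 0.01 for all genes. Gzmb was 51.7 ± 2.34 CPM in BSF (SD, n = 2) and 79.3 ± 3.15 CPM in LSF (SD, n = 3), and Cd8a 35.8 ± 2.05 and 62.9 ± 2.11 CPM. In LSF against DSF, however, 0 of the 23 were lower and 1 higher, the widely expressed Id2, while 3 Btnl genes and 15.9% of all genes passed. In bulk RNA, more cells of a type and more RNA per cell cannot be told apart, and the part of lymphocyte RNA in the Btnl results was not tested. Of 13 tested genes of B cells, plasma cells and myeloid cells 7 were lower in BSF than in LSF, of 10 fibroblast and smooth muscle genes 8, and of 9 endothelial genes 0, with none higher, where 29.3% of all genes passed. The medians were -1.10, -1.45 and -0.59 on the log2 scale, beside 0.01 for all genes. Their summed levels were 41.9 to 42.2, 33.9 to 42.2 and 15.04 to 15.6 CPM in BSF and 60.7 to 65.9, 97.0 to 120 and 17.9 to 24.4 CPM in LSF.

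**Figure D4:**
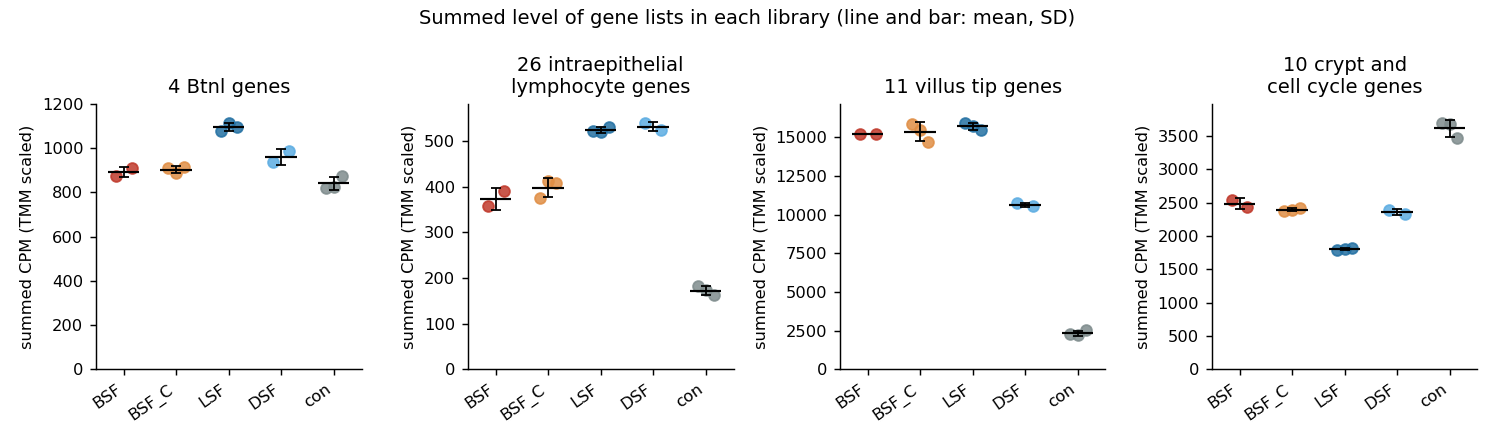
Summed level (CPM, axes from 0) of the 4 Btnl genes, 26 intraepithelial lymphocyte genes, 11 villus tip genes and 10 crypt and cell cycle genes in each library, with the mean and SD of each group (n = 2 in BSF and DSF, n = 3 in BSF_C, LSF and con). The Btnl sum is highest in LSF (1075 to 1112 CPM), the lymphocyte sum is 520 to 532 CPM in LSF and 524 to 539 CPM in DSF, and the crypt sum is lowest in LSF (1797 to 1821 CPM).

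Genes of the crypt and of the differentiated villus were also counted. Crypt and cycling genes summed to 2434 to 2544 CPM for BSF, 2380 to 2420 for BSF_C, 1797 to 1821 for LSF, 2330 to 2388 for DSF and 3468 to 3693 for con. Of 10 tested, 6 were higher and 0 lower in BSF than in LSF, where 29.3% of all genes passed (list median 0.36 beside 0.01 for all genes), among them the stem cell gene Olfm4 (0.46 ± 0.05) and the proliferation gene Mki67 (0.62 ± 0.07). In LSF against DSF, 6 were lower and 0 higher, where 15.9% of all genes passed. The crypt genes called thus went in the direction opposite to Btnl1, Btnl4 and Btnl6 in both comparisons. Villus tip genes summed to 15198 to 15201 CPM in BSF, 14695 to 15900 in BSF_C, 15492 to 15915 in LSF, 10541 to 10733 in DSF and 2228 to 2528 in con, a sum dominated by Apoa4. BSF_C overlaps LSF in this sum, and DSF is the lowest of the groups other than con, unlike the Btnl sum. Of 11 tested, 5 were lower and 0 higher in BSF than in LSF, among them Klf4 (-0.59 ± 0.07) and Ada (-0.72 ± 0.12), and 7 were higher and 0 lower in LSF than in DSF, with list medians of -0.05 and 0.52 beside 0.01 and 0.00 for all genes. Of 15 enterocyte and epithelial genes, 6 were lower and 1 higher in BSF than in LSF, with a median of -0.06 beside 0.01 for all genes. Alpi, which encodes the alkaline phosphatase of the brush border, was 1864 ± 44.1 CPM in BSF and 2994 ± 40.9 CPM in LSF. The part of crypt and villus genes in the Btnl results was not tested.

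HNF4 and CDX factors, which drive enterocyte genes and have been linked to Btnl expression in mouse gut, did not move in one direction. Hnf4a averaged 1582 ± 20.1 CPM in BSF (SD, n = 2), 1346 ± 25.97 in LSF and 3393 ± 271 in con (SD, n = 3 each). Hnf4g, its close relative, was 248 ± 2.19 CPM in BSF, 306 ± 18.2 in LSF, 219 ± 2.92 in DSF (n = 2) and 126 ± 19.9 in con. In LSF against con the log2 fold change was -1.33 ± 0.05 for Hnf4a and 1.28 ± 0.07 for Hnf4g (edgeR adjusted p = 1.30e-31 and 1.43e-23). In BSF against LSF it was 0.23 ± 0.05 for Hnf4a and -0.30 ± 0.07 for Hnf4g (edgeR adjusted p = 0.000431 and 0.000594). Of 13 factors tested, 2 were higher and 4 lower in BSF than in LSF, where 29.3% of all genes passed, and 4 were higher and 8 lower in BSF than in con, where 38.3% of all genes were higher and 31.9% lower.

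Interferon-gamma induces Cd274 in many cells, and of 23 tested genes of that pathway 10 were lower and 1 higher in BSF than in LSF, where 29.3% of all genes passed, with a median log2 fold change of -0.27 beside 0.01 for all genes. Socs3 (-1.06 ± 0.11) and the peptide transporter gene Tap1 (-0.50 ± 0.08) were lower, with edgeR adjusted p-values of 1.43e-11 and 8.35e-07. The gene higher in BSF was Ciita, the activator of class II genes, at 0.84 ± 0.13 (edgeR adjusted p = 9.96e-07). Irf1 was 193 and 196 CPM in BSF and 176 to 188 CPM in LSF and did not pass. In BSF against con, 8 were higher and 10 lower, where 70.2% of all genes passed.

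Of 12 genes of signalling downstream of HVEM and in NF-kB, 4 were lower and 0 higher in BSF than in LSF, near the 29.3% of all genes that passed, among them Relb (-0.45 ± 0.11) and Nfkb2 (-0.36 ± 0.10). In LSF against DSF, 4 were lower and 0 higher, where 15.9% of all genes passed, led by Nfkbia at -0.71 ± 0.10 (edgeR adjusted p = 1.34e-07). Of 7 phosphatases and kinases that act on CEACAM1 or PD-1, 2 were higher and 1 lower in BSF than in LSF, where 29.3% of all genes passed. Ptpn11, the gene of SHP-2, was 156 ± 11.9 CPM in BSF (SD, n = 2), 130 ± 2.91 in LSF, 142 ± 1.23 in DSF (n = 2) and 238 ± 8.84 in con (SD, n = 3 for LSF and con). The log2 fold change of Ptpn11 was 0.26 ± 0.07 in BSF against LSF and -0.88 ± 0.06 in LSF against con (edgeR adjusted p = 0.00193 and 4.71e-19).

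**Figure D5:**
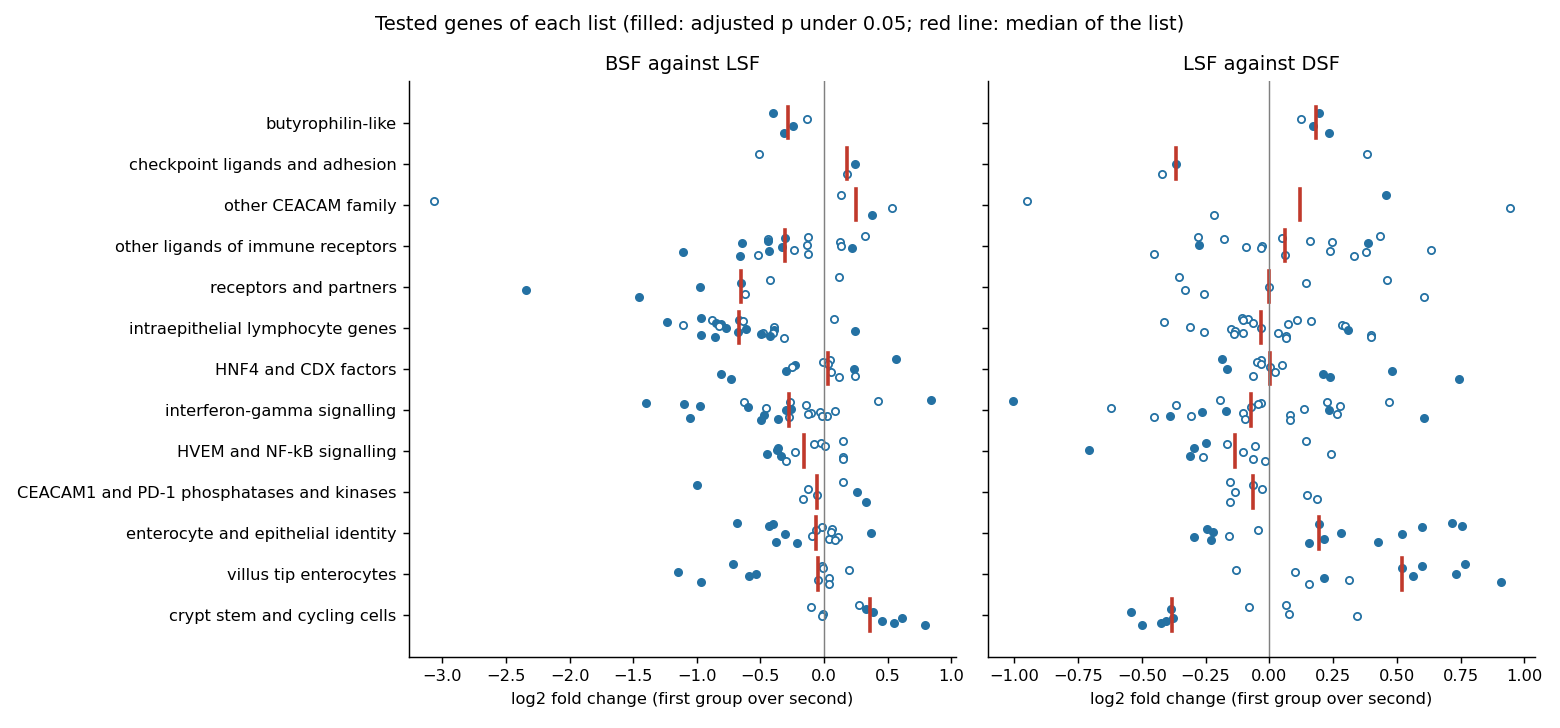
Log2 fold change (x axis) of each tested gene of 13 lists in BSF against LSF (left) and in LSF against DSF (right), with filled points where edgeR's adjusted p is under 0.05 and a red line at the median of each list. Lymphocyte genes lie mostly left of 0 in BSF against LSF (median -0.67) and around 0 in LSF against DSF (median -0.03), while the Btnl genes lie left of 0 in the one and right of 0 in the other.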

How the data were processed

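The labels' protocols describe poly(A) enrichment and random-hexamer priming of RNA from sorted cells. The authors deposited raw counts per gene symbol, with no normalization. FastQC 0.11.8, cutadapt 2.9, STAR 2.7.2e, DESeq2 1.32.0, GRCm38 and mm10 are named per the submitters' processing notes, and the counting rule, strand and annotation are not given in the sources used here. Of the symbols, 99.2% matched GENCODE M21, and windows before gene starts came from RefSeq.

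Genes were kept by filterByExpr (14300 genes, 99.91% of counts) and scaled by trimmed means (TMM). They were tested in edgeR 4.0.16 (R 4.3.3) with the quasi-likelihood test fitted once to all 13 libraries by group (8 residual degrees of freedom). Benjamini-Hochberg adjustment ran over all genes tested, with a threshold of 0.05. SE is the absolute log2 fold change divided by the root of F. All 10 pairs of groups were compared. The median biological coefficient of variation was 6.2%. The procedure was tested on simulated data.

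DSF columns carry other numbers than the labels, so DSF libraries are called a and b. No pair of libraries agreed within sampling noise. The members and the 18 lists were chosen with earlier results of these data known. In each list the genes named are the defining ones and up to 4 with the smallest p in a comparison where 1 group or both averaged 1 CPM or more. Alternatives were DESeq2 size factors, library totals alone, DESeq2 1.42.0 (Wald test), limma-voom 3.58.1, no filter, only the 2 groups compared, con left out of the fit, a replicate block, and leaving out each library. Some values for single genes and motifs are not reported here.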

Additional observations from a re-analysis of the deposited data

How the results depend on the processing

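Against con, the calls and directions of the members other than Cd274 stood in all 474 alternative values. Over all comparisons and members, 483 of 504 values under other processing kept direction and call, 5 were no longer called and 16 became called; leaving out 1 library gave 883, 20 and 7 of 910, and none reversed. The numbers did not pair the libraries (correlations of -0.095 to 0.048), and a replicate block, possible for 6 comparisons without DSF, left 4 members called in BSF against LSF and 7 in LSF against con, with 3598 and 10136 genes called. The count of all genes called in BSF_C against BSF, 19, became 2 with the DESeq2 Wald test, 4 with limma-voom, 30 with no filter, 32 with only the 2 groups compared and 29 with con left out, and with the Wald test that in BSF against DSF became 1029 and that in BSF_C against DSF 1112, against 1720 and 1696. Members called in BSF against DSF became 2 with the Wald test, with only the 2 groups and with con left out, and members called in BSF_C against DSF became 2 with library totals, the Wald test, limma-voom, no filter, only the 2 groups and con left out, against 1 in both. Leaving out 1 library gave 12 to 27 genes called in BSF_C against BSF, 2557 to 4857 in BSF against LSF, 798 to 2329 in BSF against DSF, 848 to 2197 in BSF_C against DSF and 1288 to 2776 in LSF against DSF; members called ranged over 0 to 2, 0 to 2 and 1 to 5 in the last 3. For these counts of all genes, leaving out con replicate 3 gave the highest of each, and leaving out a BSF, BSF_C or DSF library the lowest. The lone library then left in BSF or DSF is assumed to vary like the other groups. Cd274, with 1 to 37 counts, is limited by depth. The cause of these changes was not tested.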
